A study of Homo sapiens with 6 samples.

Results

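Collagen chain genes are the genes whose symbol reads COL, a type number, A and a chain number, such as COL2A1. A search of the deposited table for that pattern found 44 of its 19974 annotated genes, or 44 of 26184 rows when loci without an annotated gene were included. RNA-seq was performed on Huh7, an established human hepatocellular carcinoma cell line, in 2 states with 3 libraries each. The study described the 3 samples of each line as independent. The Huh7 P cells were the wild-type parental line without treatment, and the Huh7 LR cells were a lenvatinib-resistant line raised from them under lenvatinib rising from 1 to 20 μM for 10 months. Lenvatinib inhibits receptor tyrosine kinases of the VEGF and FGF receptor families. The comparison is therefore between a parental line and the resistant line derived from it. By the study's methods the resistant line was kept in medium with lenvatinib, but whether the drug was present when RNA was taken was not stated, so resistance and exposure cannot be told apart, and only 1 resistant line was sequenced.

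A collagen molecule is a trimer of chains wound into a helix, and each chain repeats the triplet Gly-X-Y over its helical part. Fibrillar collagens form the rope-like fibrils of connective tissue, FACIT collagens attach to fibril surfaces, and other members build basement membranes, beaded filaments or anchoring fibrils, or span the cell membrane. In liver, the collagen of scar tissue is made mainly by stellate cells and fibroblasts. Some types need 1 kind of chain, as type II does with COL2A1, while others need partners from different genes, as type IX does with COL9A1, COL9A2 and COL9A3.

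The repeat can be read directly in the coding sequence. The first 54 coding bases of the longest unbroken Gly-X-Y run are given 5′ to 3′ for 7 chains, with the glycine codons GGN in capitals. Intron bases within each GRCh38 interval are left out. The first 3 chains are fibrillar chains that rose in Huh7 LR cells and COL24A1 is a fibrillar chain that fell. COL12A1 is a FACIT chain that rose. COL9A2 and COL9A3 are chains of the same collagen type, of which COL9A3 passed the test and COL9A2 did not.
COL2A1, chr12:47995875-47996556, minus strand: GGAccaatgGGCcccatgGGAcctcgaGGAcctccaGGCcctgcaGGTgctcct
COL5A2, chr2:189086726-189088703, minus strand: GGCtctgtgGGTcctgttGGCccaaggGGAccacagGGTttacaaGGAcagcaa
COL1A1, chr17:50198161-50198441, minus strand: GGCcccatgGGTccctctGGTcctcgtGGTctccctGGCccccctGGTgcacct
COL24A1, chr1:86089183-86092275, minus strand: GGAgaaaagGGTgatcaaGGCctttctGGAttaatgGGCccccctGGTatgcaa
COL12A1, chr6:75102008-75102605, minus strand: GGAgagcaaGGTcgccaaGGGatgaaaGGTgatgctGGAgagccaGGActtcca
COL9A2, chr1:40311129-40311265, minus strand: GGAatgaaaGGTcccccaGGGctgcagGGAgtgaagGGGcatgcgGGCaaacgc
COL9A3, chr20:62824466-62824985, plus strand: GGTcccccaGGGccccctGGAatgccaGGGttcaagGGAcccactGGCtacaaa

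The longest unbroken run held 339 triplets in COL2A1 and in COL5A2, and 338 in COL1A1. It was shorter in the fibrillar chains COL24A1, with 216 triplets, and COL27A1, with 217. The FACIT chains COL9A2 and COL9A3 each held 113, and COL12A1 and COL14A1 each held 32.

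Depth was alike in the 2 lines, with 62738937 to 71427573 counts per Huh7 P library and 63233655 to 70768720 per Huh7 LR library. Of the 44 chains, 20 passed the filter on low counts and were tested, and 24 did not. The hepatocyte marker list was measured in full, with 8 of 8 genes tested, and its summed level was 43498 to 52591 CPM, the counts scaled to a common library size, in Huh7 P and 54989 to 58034 CPM in Huh7 LR. ALB, APOA1, TF and TTR of this list were higher in Huh7 LR and the remaining 4 genes did not pass, while 45.7% of all genes and loci tested passed in either direction. Among 13 stellate cell and fibroblast markers, 5 were tested and their whole list summed to only 11.7 to 15.3 CPM in Huh7 P and 8.86 to 11.4 CPM in Huh7 LR. Of the 5, PDGFRB and TAGLN were higher in Huh7 LR and PDGFRA and RGS5 lower. THY1, DCN, FAP, PDPN, LRAT, DES and POSTN had 0 counts in every library. Of 6 endothelial markers, CDH5, KDR and TEK were at 0 everywhere, while the list summed to 39.1 to 47.7 CPM in Huh7 P and 65.3 to 71.4 CPM in Huh7 LR, nearly all of it PECAM1. PECAM1 was higher in Huh7 LR. VWF passed as higher too, but at trace level. Its highest Huh7 P library reached 0.122 CPM, against 0.291 to 0.371 CPM for Huh7 LR. Only the Huh7 LR libraries met the minimum count of 10, so VWF was tested through the line where it was high. The VWF call therefore rests on few reads. The part of these markers in the collagen values was not tested. In bulk RNA, fewer cells of a type and less RNA per cell cannot be told apart.

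Collagen transcripts took a larger share of the RNA in Huh7 LR cells. They made up 0.289%, 0.277% and 0.265% of all counts in Huh7 P replicates 1, 2 and 3, and 0.490%, 0.544% and 0.517% in Huh7 LR replicates 1, 2 and 3. The lowest Huh7 LR share was thus well above the highest share in Huh7 P. For Huh7 P the summed level was 2801 CPM ± 85.3 (SD, n = 3), while Huh7 LR reached 5118 CPM ± 371 (SD, n = 3), a ratio of 1.83. The summed deposited FPKM, a value scaled for transcript length and library size, gave 1.85.

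Most of this sum was COL2A1. On the FPKM scale COL2A1 made up 58.7%, 56.1% and 54.4% of the collagen sum across the Huh7 P replicates, against 64.3%, 68.1% and 65.4% across those of Huh7 LR. COL5A2 made up 25.4% ± 2.41 (SD, n = 3) in Huh7 P and 20.5% ± 1.49 in Huh7 LR. COL14A1 went from 2.21% ± 0.0834 to 5.12% ± 0.117, and COL26A1 from 4.67% ± 0.0384 to 1.64% ± 0.0724. With COL2A1 set aside the summed CPM still differed between the lines, by a ratio of 1.49, and with COL5A2 set aside as well the ratio was 1.56, or 1.38 in FPKM. Both exclusions were chosen after the values had been seen.

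**Figure D1:**
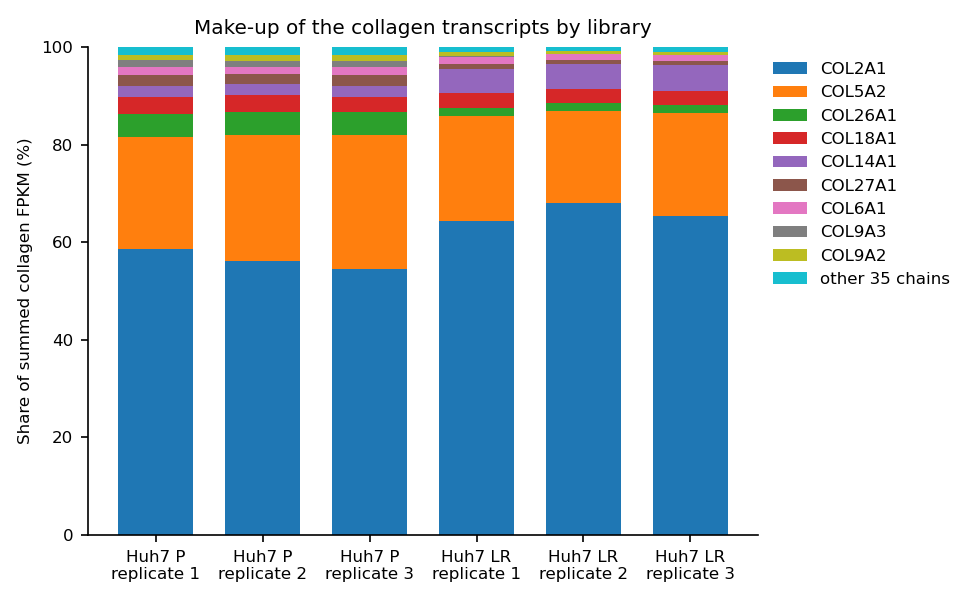
Stacked bars give each chain's share (%) of the summed collagen FPKM in each of the 6 libraries, with the 9 highest chains named and the other 35 summed. COL2A1 is the widest band in every library, at 54.4% to 58.7% in Huh7 P and 64.3% to 68.1% in Huh7 LR.

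Across the tested chains, 8 were higher in Huh7 LR and 5 lower at an adjusted p under 0.05, and 7 did not pass (edgeR's quasi-likelihood test, Benjamini-Hochberg adjustment over all 17531 genes and loci tested). The background was high, with 45.7% of all genes and loci passing in either direction, 23.3% higher and 22.4% lower, against 65% of the tested chains. The stricter call, an adjusted p under 0.001 and more than a 2-fold change, was met by 4 chains that were higher, COL14A1, COL1A1, COL12A1 and COL2A1, and by 2 that were lower, COL9A3 and COL24A1. That was 30% of the tested chains, beside 6.21% of all genes and loci, of which 4.43% were higher and 1.78% lower. The CPM of the lines did not overlap in 13 chains, 8 higher and 5 lower, 65% of those tested, beside 55.9% of all genes and loci, 28.2% higher and 27.7% lower. The median log2 fold change of the tested chains was 0.25, and it was 0.0046 over everything tested.

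**Figure D2:**
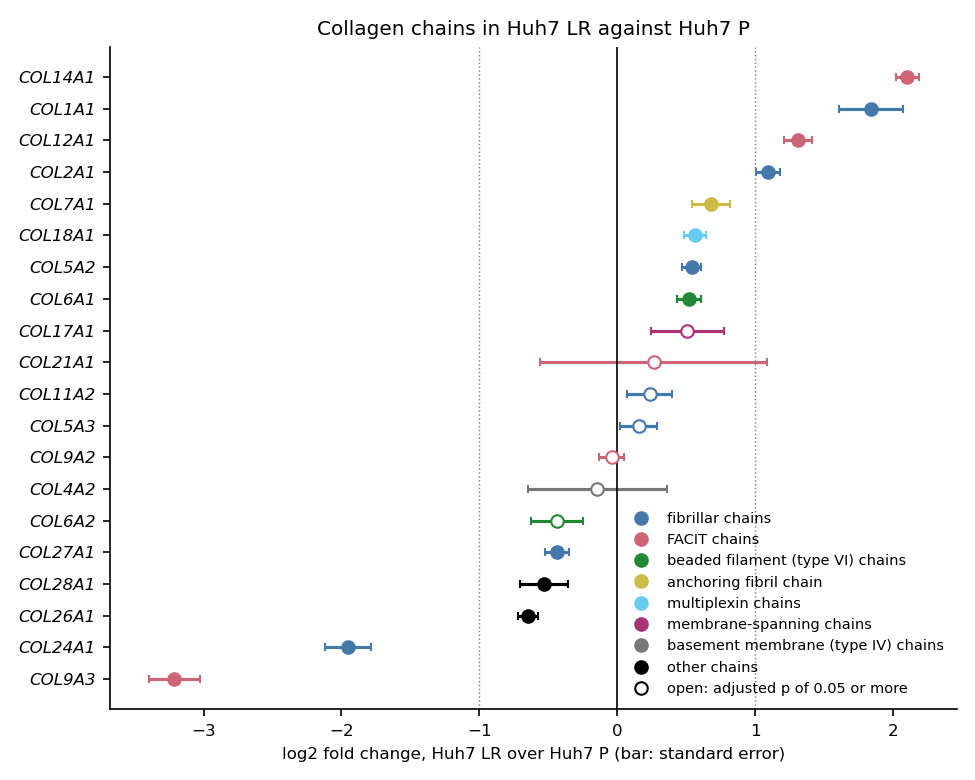
Points give the log2 fold change of Huh7 LR over Huh7 P for the 20 tested collagen chains, ordered by size and coloured by structural class, with bars for the standard error, open points for an adjusted p of 0.05 or more and dotted lines at a 2-fold change. The values run from 2.10 for COL14A1 to -3.21 for COL9A3, and the fibrillar and FACIT chains stand at both ends.

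Among the 11 fibrillar chains, 7 were tested, of which 3 rose, 2 fell and 2 did not pass. COL2A1, the chain of type II collagen and the chief collagen of cartilage, lies at chr12:47972965-48004554 on the minus strand (GRCh38). It was the most abundant chain, at 1561, 1481 and 1382 CPM in the Huh7 P libraries and 2877, 3452 and 3103 CPM in the Huh7 LR libraries. The lowest Huh7 LR library lay well above the highest Huh7 P library. COL2A1 rose by a log2 fold change of 1.09 (SE 0.08, adjusted p = 3.34e-06). By mean FPKM it ranked 177 among annotated genes in Huh7 P and 73 in Huh7 LR, with 269 ± 19.1 and 582 ± 48.3 FPKM (SD, n = 3).

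COL5A2, a chain of type V collagen, which joins type I fibrils and limits their width, was next in abundance. It stood at 852, 896 and 903 CPM in Huh7 P and 1209, 1329.55 and 1313 CPM in Huh7 LR. The libraries of each line lay close together and the lines did not overlap. COL5A2 rose by a log2 fold change of 0.54 (SE 0.07, adjusted p = 1.01e-04), and its rank by mean FPKM went from 443 to 246. On the FPKM scale the ratio of COL2A1 to COL5A2 was 2.24 ± 0.305 in Huh7 P and 3.24 ± 0.345 in Huh7 LR (SD, n = 3 each).

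COL1A1, the α1 chain of type I collagen and the main collagen of scar tissue, was scarce in these cells. It had 1.48, 1.05 and 1.30 CPM in Huh7 P and 6.198, 3.63 and 3.94 CPM in Huh7 LR. Huh7 LR replicate 1 was the highest, and the remaining Huh7 LR libraries still lay above all of Huh7 P. COL1A1 rose by a log2 fold change of 1.84 (SE 0.23, adjusted p = 9.12e-05), and by 1.56 without Huh7 LR replicate 1. Without Huh7 P replicate 3 its adjusted p was 0.00105, just outside the stricter call, and on log2(FPKM + 0.1) it was 0.00315 (limma). On log2(FPKM + 1) its log2 fold change was 0.56. Its usual partner COL1A2, the α2 chain, was too low to test, with counts of 0, 11 and 5 for Huh7 P and of 0, 2 and 1 for Huh7 LR.

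COL24A1 and COL27A1 are fibrillar chains with the shorter, interrupted helix shown by their runs. COL24A1, at chr1:85729233-86156943 on the minus strand, had 7.999, 8.69 and 8.60 CPM in Huh7 P and 2.19, 1.70 and 2.64 CPM in Huh7 LR. All Huh7 LR libraries lay far below the Huh7 P range, and COL24A1 fell by 1.95 on the log2 scale (SE 0.17, adjusted p = 6.08e-06). On log2(FPKM + 1) its value was -0.74, outside the stricter call. COL27A1 had 89.4, 82.5 and 81.7 CPM in Huh7 P and 70.3, 56.4 and 60.4 CPM in Huh7 LR. It too fell without overlap, by 0.44 on the log2 scale (SE 0.09, adjusted p = 0.00183). The FPKM ratio of COL27A1 to COL24A1 was 8.97 ± 1.02 in Huh7 P and 27.0 ± 5.15 in Huh7 LR (SD, n = 3 each).

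COL11A2 and COL5A3 were the fibrillar chains that did not pass. COL11A2, a chain of the cartilage fibril collagen type XI, had 3.41, 2.58 and 2.71 CPM in Huh7 P and 3.07, 3.58 and 3.59 CPM in Huh7 LR (adjusted p = 0.272). COL5A3, a further type V chain, had 4.89, 4.73 and 4.36 CPM in Huh7 P and 5.58, 5.38 and 4.62 CPM in Huh7 LR (adjusted p = 0.37). The lines overlapped for both. COL5A1, the type V chain that most type V molecules contain, had 0 counts in all 3 Huh7 P libraries and 8, 0 and 3 counts in Huh7 LR. COL3A1, the chain of type III collagen, was counted 0, 5 and 0 times in Huh7 P, against 17, 0 and 14 times in Huh7 LR. It was too low for the test on all libraries. Without Huh7 LR replicate 2 it passed as higher (adjusted p = 0.0422), but that was the Huh7 LR library with 0 counts. This value is therefore no support for a rise. COL11A1 had at most 12 counts in any library.

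**Figure D3:**
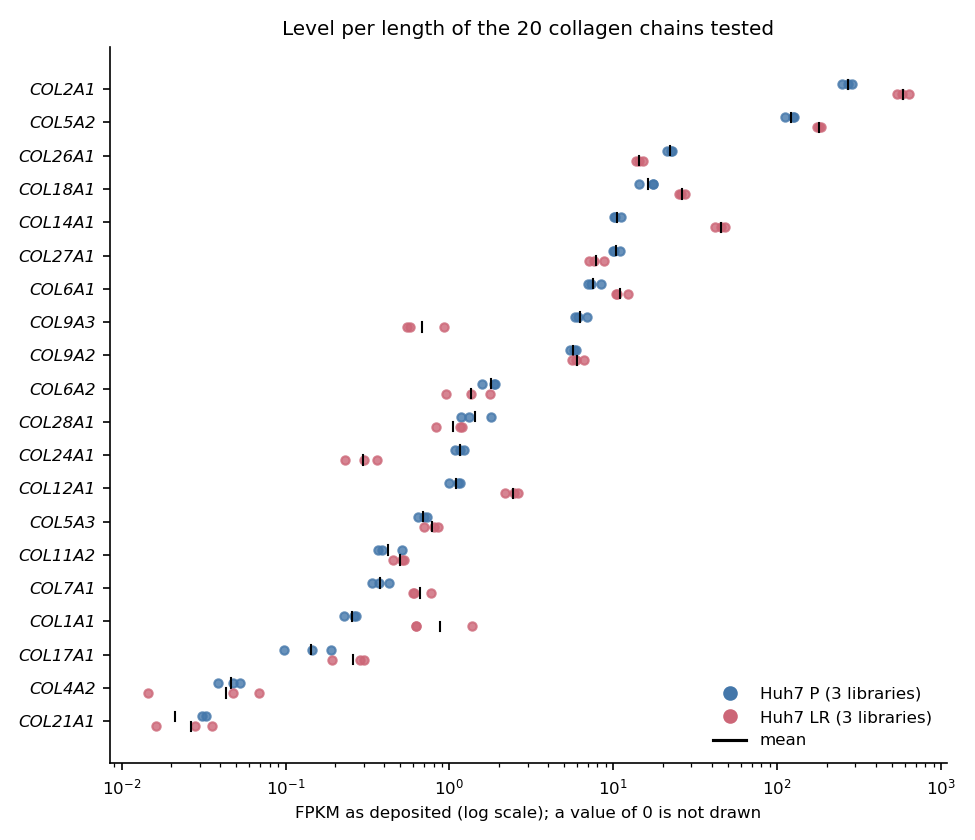
Points give the deposited FPKM of each library on a log axis for the 20 tested collagen chains, ordered by their mean in Huh7 P, with short vertical lines for the mean of each line. COL2A1 and COL5A2 stand at 112 to 634 FPKM, above every other chain in all libraries, and COL9A3 and COL24A1 show Huh7 LR points well to the left of the Huh7 P points.

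The FACIT chains, which decorate fibrils, held the largest changes in both directions. Of 10 chains, 5 were tested, 2 rose and 1 fell. COL14A1, the chain of type XIV collagen, lies at chr8:120059780-120372036 on the plus strand. It had 75.5, 67.5 and 70.5 CPM in Huh7 P and 280.3, 327 and 309 CPM in Huh7 LR, so the lines were far apart. COL14A1 rose by a log2 fold change of 2.10 (SE 0.08, adjusted p = 4.63e-08), about 4.29-fold, and its rank by mean FPKM went from 5561 to 1414. COL12A1, the chain of type XII collagen and the closest relative of COL14A1 in domain layout, had 12.1, 12.1 and 10.8 CPM in Huh7 P and 25.6, 31.9 and 29.2 CPM in Huh7 LR. The lines were again separate, and COL12A1 rose by a log2 fold change of 1.31 (SE 0.10, adjusted p = 3.76e-06), or 0.71 on log2(FPKM + 1), outside the stricter call. COL14A1 exceeded COL12A1 by an FPKM ratio of 9.65 ± 1.31 in Huh7 P and 18.6 ± 0.527 in Huh7 LR (SD, n = 3 each).

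Type IX collagen, a cartilage FACIT, is built from COL9A1, COL9A2 and COL9A3, and its chains did not move together. COL9A3, at chr20:62816244-62841159 on the plus strand, had 18.4, 16.6 and 16.0 CPM in Huh7 P and 2.47, 1.499 and 1.54 CPM in Huh7 LR. Every Huh7 LR library was far below every Huh7 P library. COL9A3 fell by 3.21 on the log2 scale (SE 0.18, adjusted p = 5.21e-07), 9.27-fold lower and the largest change of any tested chain. Under the alternatives its log2 fold change ran from -3.48 to -2.11. COL9A2 had 15.6, 16.6 and 16.4 CPM in Huh7 P and 16.8, 15.7 and 14.8 CPM in Huh7 LR, and the lines overlapped. Its log2 fold change was -0.04 (SE 0.09, adjusted p = 0.739). The sign of this small value turned positive on the FPKM scale. COL9A1 had 6 counts in Huh7 P replicate 2 and 0 in each of the other 5 libraries. A count of 0 allows up to 3 counts, or 0.0420 to 0.0478 CPM over the 6 libraries when computed on their totals without TMM scaling.

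The FPKM ratio of COL9A3 to COL9A2 was 1.26, 1.03 and 1.01 across the Huh7 P replicates, against 0.141, 0.0932 and 0.102 across those of Huh7 LR. The chains were thus at near parity per length in Huh7 P, and COL9A3 was the minor one in every Huh7 LR library. For this and the other 4 FPKM ratios given here the lines did not overlap. An exact two-sided permutation test gave p = 0.1 for each of the 5 ratios, also 0.1 after Benjamini-Hochberg adjustment. That is the smallest p that 3 against 3 libraries allow, and lines without overlap can give no other. The pairs were chosen with earlier results known, so the test adds nothing to the separation itself. The share of separated ratios among other gene pairs was not computed. The annotation places 45 exon bases of COL9A3, 0.93% of its exon length, opposite exons of TCFL5 on the other strand, which had 893 to 938 counts per library in Huh7 P and 1080 to 1276 in Huh7 LR.

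The last tested FACIT chain, COL21A1, was near the limit of detection, with 0 to 0.171 CPM per library and a log2 fold change of 0.26 (SE 0.82, adjusted p = 0.822), which turned to -0.31 without Huh7 P replicate 3. COL16A1, COL19A1, COL20A1 and COL22A1 had at most 14 counts in any library.

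Type VI collagen forms beaded filaments near cell surfaces from COL6A1, COL6A2 and a further chain, usually COL6A3. COL6A1 had 38.3, 32.5 and 33.9 CPM in Huh7 P and 54.8, 47.9 and 47.3 CPM in Huh7 LR. The lines did not overlap, and COL6A1 rose by a log2 fold change of 0.52 (SE 0.09, adjusted p = 6.89e-04). COL6A2, which lies 93046 bases downstream of COL6A1 on chromosome 21, had 6.83, 6.99 and 5.995 CPM in Huh7 P and 6.23, 3.51 and 4.88 CPM in Huh7 LR. Huh7 LR replicate 1 lay within the Huh7 P range while the others lay below it. The log2 fold change of COL6A2 was -0.44 (SE 0.19, adjusted p = 0.0774). It was -0.65 without that library (adjusted p = 0.00826), and -0.47 with the replicate number as a block (adjusted p = 0.042). The FPKM ratio of COL6A1 to COL6A2 was 4.26 ± 0.492 in Huh7 P and 8.53 ± 2.16 in Huh7 LR (SD, n = 3 each). COL6A3 had 0 counts in every Huh7 P library and 8, 10 and 3 counts in Huh7 LR, and it passed as higher when low counts were not filtered (adjusted p = 0.0356), while COL6A5 was at 0 throughout and COL6A6 had 5 to 16 counts per library.

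**Figure D4:**
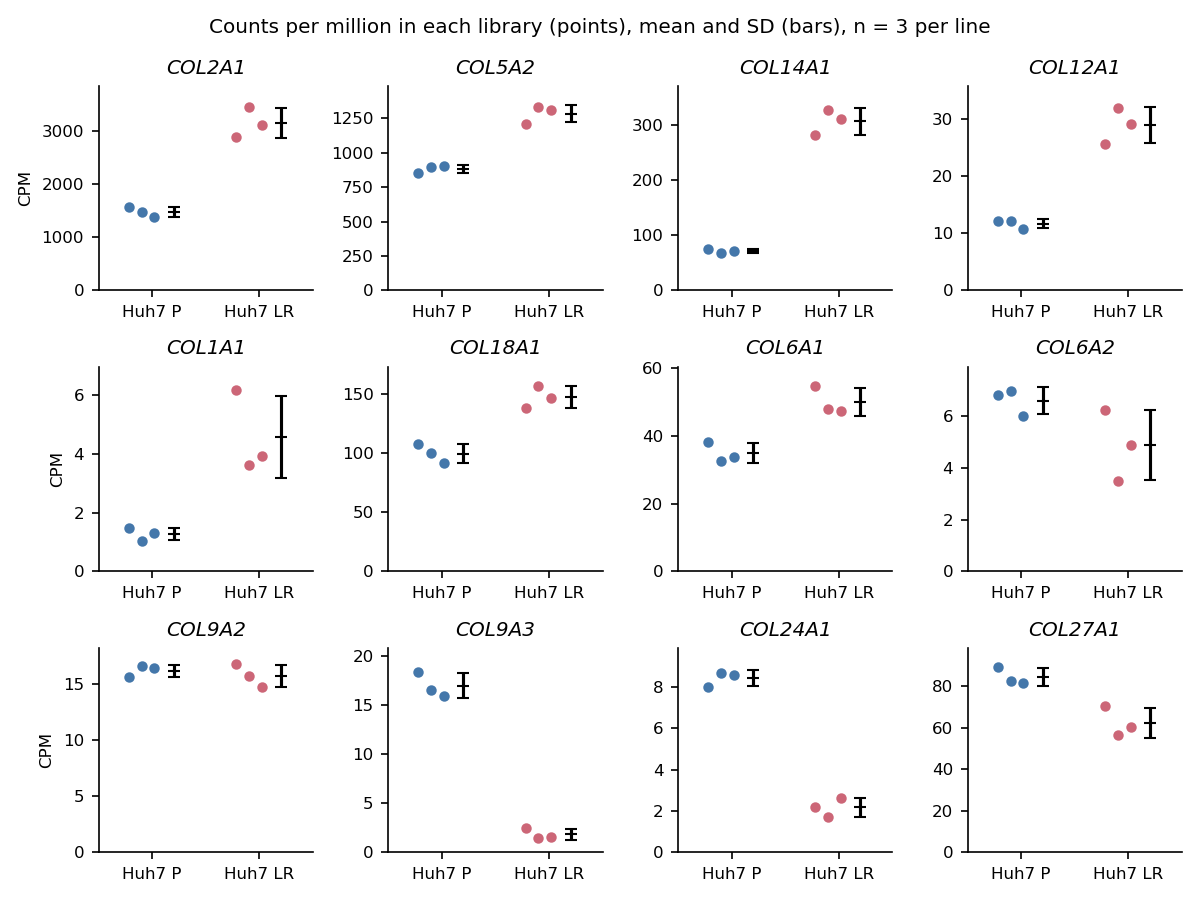
Points give the CPM of each library for 12 collagen chains, each panel with its own axis from 0, and bars give the mean and SD of the 3 libraries of a line. COL9A3 and COL24A1 drop in all Huh7 LR libraries, COL9A2 and COL6A2 overlap between the lines, and the other chains shown are separated.

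COL18A1, the type XVIII chain of basement membranes from whose end endostatin is released, is made by hepatocytes in normal liver. It had 107, 99.96 and 91.2 CPM in Huh7 P and 138, 157 and 146 CPM in Huh7 LR. The lines were separate, and COL18A1 rose by a log2 fold change of 0.56 (SE 0.08, adjusted p = 2.10e-04). The annotation places 1401 of its exon bases, 16.4% of its exon length, opposite exons of SLC19A1 on the other strand. Whether the counting used strand was not stated, and SLC19A1 itself had counts of 4635, 4120 and 3876 for Huh7 P and of 2404, 3212 and 2659 for Huh7 LR, the opposite direction to COL18A1.

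COL7A1, whose product forms the anchoring fibrils below epithelia, was low. It had 4.28, 3.79 and 3.43 CPM in Huh7 P and 6.74, 5.90 and 5.78 CPM in Huh7 LR, without overlap. COL7A1 rose by a log2 fold change of 0.68 (SE 0.14, adjusted p = 0.00227). COL17A1, a membrane-spanning chain of hemidesmosomes, had 1.11, 0.616 and 0.826 CPM in Huh7 P and 1.33, 1.11 and 1.20 CPM in Huh7 LR, and its log2 fold change of 0.51 did not pass (SE 0.26, adjusted p = 0.142).

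The chains outside these classes were lower in Huh7 LR. COL26A1, a chain first described in testis and ovary, had 73.7, 73.5 and 69.5 CPM in Huh7 P and 45.2, 49.1 and 43.9 CPM in Huh7 LR. The lines were clearly apart, and COL26A1 fell by 0.65 on the log2 scale (SE 0.07, adjusted p = 3.45e-05). COL28A1, a chain with von Willebrand factor A domains, had 5.14, 4.51 and 6.71 CPM in Huh7 P and 4.08, 3.23 and 4.002 CPM in Huh7 LR. Its Huh7 P values were spread widely, with replicate 3 the highest. COL28A1 fell by 0.53 on the log2 scale (SE 0.17, adjusted p = 0.0265), but the call did not hold on the FPKM scale, where the lines overlapped. Nor did it hold without Huh7 P replicate 3 (adjusted p = 0.125), without Huh7 LR replicate 2 (adjusted p = 0.0859) or without Huh7 LR replicate 3 (adjusted p = 0.0513).

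Type IV collagen, the network of basement membranes, was almost undetected in these libraries. COL4A2 was the only 1 of its 6 chains tested, at 0.107 to 0.484 CPM per library, with a log2 fold change of -0.15 (SE 0.50, adjusted p = 0.838) that became 0.25 without Huh7 LR replicate 1. Its head-to-head neighbour and partner COL4A1 was counted 0, 10 and 0 times in Huh7 P, against 9, 24 and 8 times in Huh7 LR. The 24 chains too low to test had at most 24 counts in any library, and together they came to 0.460 to 1.102 CPM in Huh7 P and 1.15 to 1.38 CPM in Huh7 LR. COL22A1, COL6A5, COL4A5 and COL13A1 had no count anywhere.

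Promoter sequence from RefSeq (GRCh38.p14) was at hand for 32 of the 44 genes, as 44 transcription start sites. The 250 bases before the start are given 5′ to 3′ for COL12A1 and COL7A1, which rose, and for COL27A1, which fell. Capitals mark TATAAA and GGGCGG, read on either strand, so they also appear as TTTATA and CCGCCC.
COL12A1, chr6:75206054-75206303, minus strand: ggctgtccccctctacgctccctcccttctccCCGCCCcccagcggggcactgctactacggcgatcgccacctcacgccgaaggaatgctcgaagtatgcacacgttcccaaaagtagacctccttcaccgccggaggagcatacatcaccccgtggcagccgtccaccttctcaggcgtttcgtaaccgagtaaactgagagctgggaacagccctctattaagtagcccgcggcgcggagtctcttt
COL7A1, chr3:48595330-48595579, minus strand: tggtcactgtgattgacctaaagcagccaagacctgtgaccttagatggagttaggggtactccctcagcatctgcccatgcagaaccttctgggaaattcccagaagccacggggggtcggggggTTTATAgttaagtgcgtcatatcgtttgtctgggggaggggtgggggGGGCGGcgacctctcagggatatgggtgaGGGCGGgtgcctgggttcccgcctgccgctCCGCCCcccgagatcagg
COL27A1, chr9:114155287-114155536, plus strand: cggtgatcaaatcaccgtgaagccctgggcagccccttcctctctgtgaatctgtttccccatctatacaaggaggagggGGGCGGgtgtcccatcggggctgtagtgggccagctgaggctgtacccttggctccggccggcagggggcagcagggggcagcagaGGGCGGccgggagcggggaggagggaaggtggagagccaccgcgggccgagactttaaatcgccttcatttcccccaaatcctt

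These 3 windows hold GGGCGG, the letters of a GC box, 1, 3 and 2 times, and only that of COL7A1 holds TATAAA. Over the 44 collagen windows GGGCGG occurred in 54.5%, TATAAA in 18.2% and CCAAT or its complement ATTGG in 27.3%. Over all 35116 windows of the same length the shares were 42.6%, 10.7% and 32.0%. A match describes the letters alone, and several windows belong to the same gene.

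Genes that make, process, bind and degrade collagen, counted with 11 genes of TGF-beta input, moved in both directions. Of 69 genes in 6 lists, 56 were tested, 22 were higher in Huh7 LR and 11 lower at an adjusted p under 0.05, and 23 did not pass. That is 39.3% higher and 19.6% lower, beside the background of 23.3% and 22.4%, and the median log2 fold change was 0.09. The stricter call was met by P4HA2, LOXL2 and ADAMTS3, which were higher, and by FKBP10 and P3H3, which were lower, 8.93% of those tested beside 6.21% of all genes and loci. Some genes named in the following paragraphs were picked after their values had been seen, to spell out short counts.

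Prolyl and lysyl hydroxylases modify the chains before they fold. Of 15 genes in this list, 14 were tested, 5 rose and 3 fell. P4HA2, a catalytic subunit of prolyl 4-hydroxylase, had 17.4, 18.5 and 17.4 CPM in Huh7 P and 38.4, 40.6 and 37.3 CPM in Huh7 LR, and rose by a log2 fold change of 1.13 (SE 0.08, adjusted p = 1.52e-06). Its libraries were tightly grouped in each line. The lowest P4HA2 value under the alternatives was 0.96, just outside the stricter call. P4HB, the subunit shared by these enzymes and the most abundant gene of the list, rose from 819 ± 16.9 to 1009 ± 114 CPM (SD, n = 3, adjusted p = 0.0132). P3H3, a prolyl 3-hydroxylase family member that works in a lysyl hydroxylation complex, had 7.87, 7.76 and 8.43 CPM in Huh7 P and 5.02, 2.84 and 3.80 CPM in Huh7 LR. P3H3 fell by 1.05 on the log2 scale (SE 0.18, adjusted p = 8.15e-04), although it left the stricter call when any library except Huh7 LR replicate 1 was left out. P4HA1, P3H1 and P3H2 also rose, and P3H4 and PLOD3 also fell. PPIB at 371 ± 40.6 and 327 ± 30.9 CPM and COLGALT1 at 149 ± 8.54 and 142 ± 10.3 CPM did not pass (SD, n = 3 each), although PPIB passed as lower without Huh7 P replicate 1 (adjusted p = 0.0498) and without Huh7 LR replicate 2 (adjusted p = 0.0484).

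Among 9 collagen chaperones and export factors, FKBP14 rose and FKBP10 and SERPINH1 fell. FKBP10, a prolyl isomerase of the endoplasmic reticulum needed for type I collagen crosslinking, had 40.2, 35.4 and 38.4 CPM in Huh7 P and 8.76, 6.12 and 6.01 CPM in Huh7 LR. It fell in every library by a wide margin, by 2.45 on the log2 scale (SE 0.14, adjusted p = 4.95e-07). SERPINH1, the collagen chaperone HSP47, fell from 69.8 ± 1.35 to 52.9 ± 10.0 CPM (SD, n = 3, adjusted p = 0.0153), and its lines overlapped on the FPKM scale. The export genes SEC23A (log2 fold change 0.03), MIA2 (0.18) and MIA3 (-0.04) did not pass, although MIA2 did so without Huh7 LR replicate 2 (0.27, adjusted p = 0.0198).

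Of 14 genes for propeptide cleavage and crosslinking, 9 were tested, 3 rose and 3 fell. ADAMTS3, a procollagen N-proteinase also known to act on VEGFC, was barely detected at 0.293, 0.211 and 0.138 CPM in Huh7 P and reached 0.967, 0.742 and 1.07 CPM in Huh7 LR. It rose by a log2 fold change of 2.10 (SE 0.36, adjusted p = 7.58e-04), but left the stricter call with any single library left out (adjusted p from 0.00129 to 0.00598) and with the replicate block (0.00116). LOXL2, a lysyl oxidase, had 1.59, 1.99 and 1.70 CPM in Huh7 P and 5.31, 4.64 and 3.88 CPM in Huh7 LR, and rose by 1.39 on the log2 scale (SE 0.17, adjusted p = 8.49e-05). The lowest LOXL2 value under the alternatives was 0.61, outside the stricter call. Its relative LOX, far more abundant, fell from 119 ± 2.03 to 86.9 ± 11.04 CPM (SD, n = 3, adjusted p = 0.0018). BMP1, the procollagen C-proteinase, fell by 0.70 on the log2 scale (adjusted p = 0.00358) and its enhancer PCOLCE2 by 0.76 (adjusted p = 0.00322). LOXL4 rose from a low level, although Huh7 LR replicate 1 lay within the Huh7 P range.

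Of 9 collagen receptors, 8 were tested, 3 rose and the remaining 5 did not pass. ITGA1, the α1 subunit of a collagen-binding integrin, rose from 14.8 ± 0.573 to 24.5 ± 4.24 CPM (SD, n = 3, adjusted p = 5.80e-04). DDR1, a receptor tyrosine kinase for collagen, rose from 11.7 ± 0.948 to 17.2 ± 2.82 CPM (adjusted p = 0.00363), and ITGA11 rose from a trace level. ITGB1, the shared β1 subunit, was the most abundant at 551 ± 42.1 and 592 ± 9.62 CPM and did not pass (adjusted p = 0.279).

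The degradation list had 5 of 11 genes tested, of which 4 rose and 1 fell. MMP14, a membrane-bound collagenase, rose from 89.0 ± 3.57 to 108 ± 6.91 CPM (SD, n = 3, adjusted p = 0.00911). The protease inhibitors TIMP2 and TIMP3 rose by log2 fold changes of 0.45 and 0.26, CTSK rose too, and TIMP4 fell. MMP14 narrowly missed the threshold without Huh7 P replicate 3 (adjusted p = 0.051), as did TIMP3 (0.0555), which also missed it without Huh7 P replicate 2 (0.0612). MMP2, MMP8 and MMP9 had 0 counts in all libraries.

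TGF-beta is the classical inducer of collagen genes in fibroblasts, and all 11 genes of its list were tested, of which 6 rose and 2 fell. CTGF, a secreted target of the pathway, rose from 78.5 ± 0.969 to 134.7 ± 15.6 CPM (SD, n = 3, adjusted p = 3.45e-05). SMAD4, the shared signal transducer, rose by a log2 fold change of 0.33 and the receptor TGFBR2 by 0.25, although TGFBR2 did not pass without Huh7 P replicate 2 (adjusted p = 0.07). The ligand gene TGFB1 fell from 49.1 ± 6.56 to 37.0 ± 1.32 CPM (adjusted p = 0.00474). The scarcer ligand gene TGFB2 rose from 1.79 ± 0.190 to 2.78 ± 0.777 CPM (adjusted p = 0.0323), and TGFB3 did not pass. SMAD3 and SMAD7 also rose, and SMAD2 fell.

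**Figure D5:**
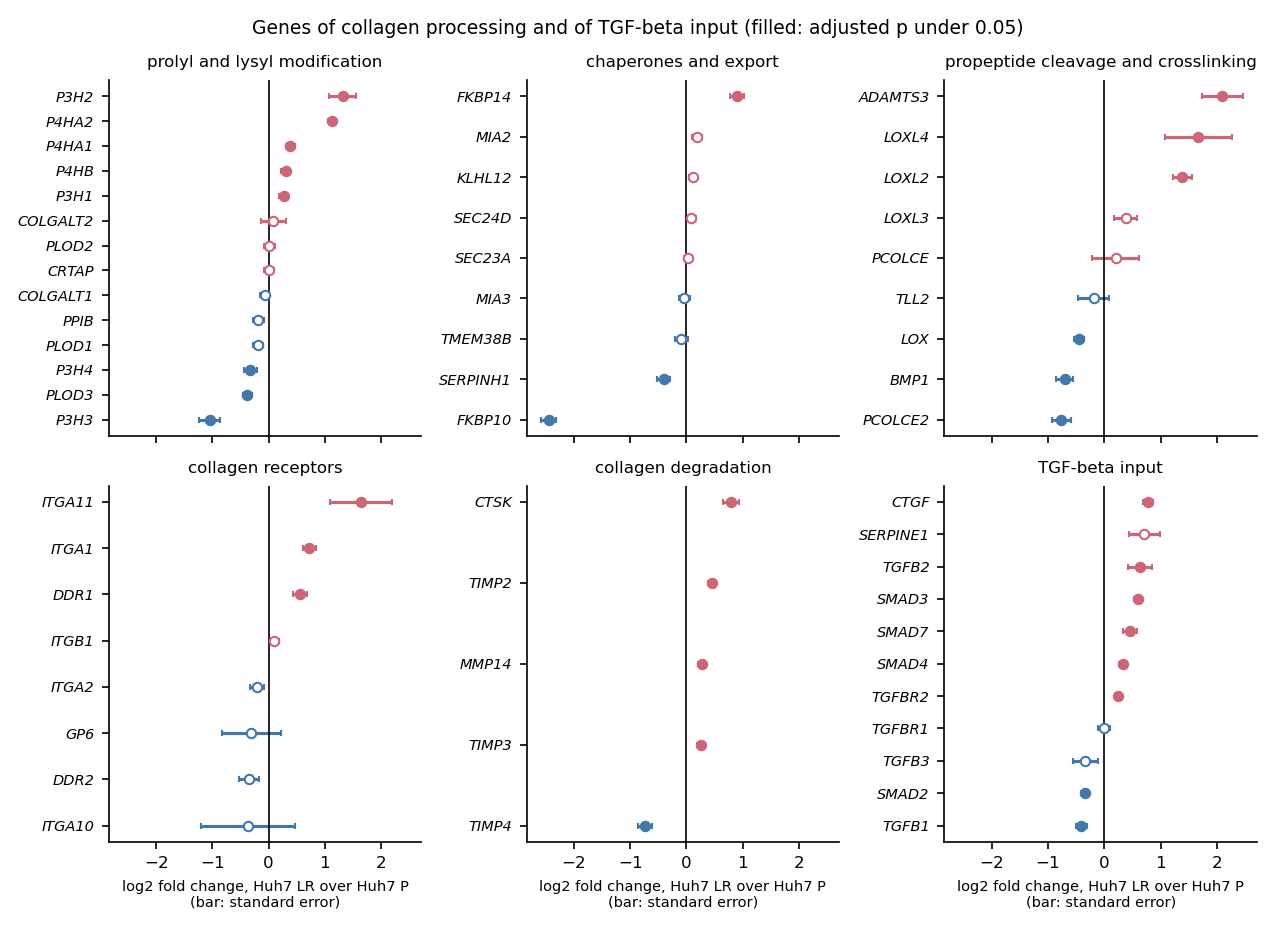
Each panel shows 1 list of genes that make, process, bind or degrade collagen or belong to TGF-beta input, with points for the log2 fold change of Huh7 LR over Huh7 P, bars for the standard error, filled points for an adjusted p under 0.05 and colours for the direction. FKBP10 at -2.45 and ADAMTS3 at 2.10 are the largest fitted values, and every list except the receptors has passed genes on both sides of 0.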

How the data were processed

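Poly(A) RNA of 3 Huh7 P and 3 Huh7 LR samples was made into cDNA libraries with a NEBNext Ultra kit. The authors deposited 1 table with a whole-number read count and an FPKM value, which the authors normalized to length and depth, for each gene and library. Per the submitters' processing notes, TopHat2, Cufflinks, DESeq and the mouse build mm10 are named without role or order, while identifiers in the table are human. The extraction text names an insect. The counting program, annotation and strand setting are not given in the sources used here. Libraries held 62738937 to 71427573 counts, and 34 lines of annotation text naming no gene were left out.

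The deposited counts were fitted in edgeR 4.0.16 under R 4.3.3, after filterByExpr (minimum count 10, minimum total 15), TMM factors, and the quasi-likelihood test of Huh7 LR against Huh7 P without a replicate block. P-values were adjusted by the Benjamini-Hochberg method over 17531 genes and loci, and standard errors were derived from the fold change and F statistic. CPM values are TMM-scaled. The test was tried on simulated data with 200 changed genes, all changed by more than 2-fold and none of low count. By the stricter call it recovered 190 of the 200, with 1 false call among 17246. Smaller changes and calls at an adjusted p under 0.05 alone were not covered by the simulation. Ratios were compared by exact permutation. Alternatives were DESeq2 1.42.0, DESeq2 size factors, other count filters, limma 3.58.1 on the log2 of FPKM with 0.1 or 1 added, where 3 or more libraries reached 0.5 FPKM, a replicate block, annotated genes alone and leaving out each library. Intervals were not computed, and limits at 0 counts cover counting error only. Gene positions, exons and coding sequences come from GENCODE release 29 on GRCh38, using the longest complete coding sequence of each gene.

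The members, lists, ratios and tests were chosen with earlier results of these data known. Every tested chain was named. In the other lists, genes past the stricter call and up to 3 further genes of highest level were named, besides those said to be picked later.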

Additional observations from a re-analysis of the deposited data

How the results depend on the processing

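Counts of collagen chains changed little. Leaving out each library gave 8 to 9 higher chains and 4 to 6 lower ones (adjusted p under 0.05), and 3 to 4 higher and 2 lower by the stricter call. On log2(FPKM + 1) the stricter call kept 2 higher and 1 lower, without COL1A1, COL12A1 and COL24A1, and on log2(FPKM + 0.1) it kept 3 higher, without COL1A1. The cause was not tested. Of the processing and TGF-beta genes, 43 passed the FPKM filter, and they gave, on log2(FPKM + 1), 0 higher and 1 lower by limma, with 18 passing as higher and 9 as lower at 0.05, and 1 lower on log2(FPKM + 0.1). Leaving out each library gave 1 to 2 of them lower and 2 to 3 higher by the stricter call. The summed collagen ratio was 1.76 to 1.89 without single libraries, 1.82 with DESeq2 size factors, 1.49 without COL2A1 and 1.56 without COL2A1 and COL5A2, both chosen after seeing the data.

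Of the values for single chains under these alternatives, 259 kept direction and side of the threshold, and those that did not belong to COL6A2, COL28A1, COL9A2, COL21A1 and COL4A2. COL6A2 also passed with DESeq2's Wald test (adjusted p = 0.0486). Signs turned in values near 0: COL9A2 to 0.077 on log2(FPKM + 0.1) and 0.067 on log2(FPKM + 1). Without single libraries COL9A2 ran from -0.089 to 0.0022, COL21A1 from -0.31 to 0.72, COL4A2 from -0.66 to 0.25, MIA3 from -0.129 to 0.067 and SEC23A from -0.014 to 0.094. SOX9 turned to 0.0032 with no filter, 0.016 with at least 10 counts in every library, 0.027 and 0.026 on the FPKM scales, and 0.0044 with annotated genes alone, an alternative also chosen after seeing the data, and ran from -0.072 to 0.078 without single libraries. SOX6 turned to 0.012 under the same filter and 4.8e-04 with annotated genes alone, and ran from -0.035 to 0.046 without single libraries. The cause was not tested. Among low chains, COL6A3 with no filter and COL3A1 without Huh7 LR replicate 2 passed as higher. Both calls rest on a few counts in Huh7 LR and are no support for a rise.

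With the replicate number as a block, 8 collagen chains were higher and 6 lower, COL6A2 being the one added, and no other call of a chain changed. Same-numbered libraries deviated together only weakly (correlations of 0.029, 0.031 and 0.032), so the numbers were not taken as pairs, although each library correlated best with its own number. Of the 24 low chains, 4 had no count to test and the others were tested only under alternatives. Whether depth or low expression set this limit was not tested.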

Other observations

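Because COL2A1 and COL9A3 are collagens of cartilage, a list of 14 cartilage matrix genes and their SOX regulators was added after those values had been seen. Of these, 9 were tested, 4 were higher in Huh7 LR and 1 was lower by edgeR's quasi-likelihood test (Benjamini-Hochberg adjustment), beside 23.3% higher and 22.4% lower over all genes and loci tested. SOX9, the transcription factor that drives COL2A1 in chondrocytes, had 214, 183 and 181 CPM in Huh7 P and 211, 181 and 186 CPM in Huh7 LR. Its libraries overlapped fully, and its log2 fold change was -0.0017 (SE 0.09, adjusted p = 0.99). SOX6, its cofactor, had 34.6 ± 1.47 and 34.4 ± 1.84 CPM (SD, n = 3 each, adjusted p = 0.96), while SOX5 fell from 25.3 ± 0.916 to 17.7 ± 3.48 CPM (adjusted p = 0.00736).

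The matrilins, some of which bind type II and type IX collagen in cartilage, were detected at unequal levels. MATN1 and MATN4 stayed at or below 0.442 CPM in every library and did not pass (adjusted p = 0.55 and 0.674). MATN3 had 3.39, 4.28 and 4.27 CPM in Huh7 P and 9.67, 15.03 and 11.3 CPM in Huh7 LR, and rose by a log2 fold change of 1.59 (SE 0.17, adjusted p = 3.28e-05). MATN2 had 7.94, 8.67 and 9.65 CPM in Huh7 P and 16.3, 23.0 and 22.6 CPM in Huh7 LR, and rose by 1.24 (SE 0.14, adjusted p = 4.25e-05). The lines did not overlap for MATN2 or MATN3. CHAD rose narrowly (adjusted p = 0.0485), with CPM that overlapped between the lines. PRG4, included above among the higher genes, was at trace level. Its highest Huh7 P library reached 0.111 CPM, against 0.353 to 0.771 CPM for Huh7 LR. Only the Huh7 LR libraries met the minimum count of 10, so PRG4 was tested through the line where it was high. The PRG4 call therefore rests on few reads. ACAN, the main proteoglycan of cartilage, had 0 counts in all 6 libraries.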
